A study of Mus musculus with 3 samples.

Results

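The 9 genes described here, Glul, Glud1, Got1, Got2, Slc1a5, Slc38a1, Slc38a2, Slc7a5 and Slc7a1, serve glutamine use and amino acid transport, and were chosen by name from 21887 protein-coding genes. For each, every peak lying in the gene or within 5 kb of it was taken from 3 CUT&Tag peak lists of Pan02 cells, a mouse pancreatic ductal adenocarcinoma line. CUT&Tag uses an antibody to tether a transposase, which tags the DNA beside the bound protein. The libraries were Flag in cells stably expressing POH1-Flag, MYC in those same POH1-Flag cells, and MYC in cells carrying the empty vector. Each group had 1 library, so no spread between replicates exists, no test between the cell lines was possible, and every interval given covers counting error only. POH1 is the deubiquitinase of the proteasome lid. Whether the POH1-Flag line is a single clone is not given in the sources used here, and endogenous POH1 was not described as removed from either line. The series addresses whether POH1 regulates MYC.

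Glutamine enters cells mainly through SLC1A5 (also called ASCT2) and the sodium-coupled carriers SLC38A1 and SLC38A2. Once inside it yields glutamate, which glutamate dehydrogenase (Glud1) or the aspartate aminotransferases of the cytosol (Got1) and the mitochondrion (Got2) can convert to α-ketoglutarate. In the direction of synthesis, glutamine synthetase (Glul) makes glutamine from glutamate and ammonia. SLC7A5 pairs with SLC3A2 to take up leucine and other large neutral amino acids in exchange for glutamine, and SLC7A1 carries arginine and lysine. MYC, a transcription factor that pairs with MAX and binds E-boxes such as CACGTG, is known for raising glutamine uptake and breakdown in cancer cells, and pancreatic cancer cells are known to depend on glutamine through Got1.

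RefSeq promoter sequence of build GRCm38.p6 was matched for 6 of the 9 genes (Glul, Glud1, Got1, Got2, Slc38a2 and Slc7a1), and not for Slc1a5, Slc38a1 or Slc7a5. The stretches below are shown because MYC peaks covered them in whole or for the most part, except that of Glul, which no peak met. Apart from that of Glud1 they end at the base before the gene start, and all run 5′ to 3′ on the gene's strand and carry in capitals each match to the E-box variants CACGCG and CATGCG or to the looser form CANNTG. Slc38a2 lies at chr15:96699729-96699978 (minus strand), Got1 at chr19:43524606-43524855 (minus), Slc7a1 at chr5:148399905-148400154 (minus) and Glul at chr1:153899679-153899928 (plus). For Glud1, whose start is 75 bp from that of the divergent gene Shld2, there is 1 stretch of 30 bases at chr14:34310587-34310616 (plus).
Glud1: gcccgcgagCATGCGcaccaagccCATCTG
Slc38a2: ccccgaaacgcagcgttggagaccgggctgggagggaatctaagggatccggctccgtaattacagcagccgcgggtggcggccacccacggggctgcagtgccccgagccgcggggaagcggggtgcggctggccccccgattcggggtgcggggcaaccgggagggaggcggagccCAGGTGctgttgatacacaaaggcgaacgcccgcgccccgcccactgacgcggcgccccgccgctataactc
Got1: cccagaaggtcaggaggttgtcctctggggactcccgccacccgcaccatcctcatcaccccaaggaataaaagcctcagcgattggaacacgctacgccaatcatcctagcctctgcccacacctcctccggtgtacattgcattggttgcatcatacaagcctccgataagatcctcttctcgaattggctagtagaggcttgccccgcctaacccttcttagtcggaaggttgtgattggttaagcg
Slc7a1: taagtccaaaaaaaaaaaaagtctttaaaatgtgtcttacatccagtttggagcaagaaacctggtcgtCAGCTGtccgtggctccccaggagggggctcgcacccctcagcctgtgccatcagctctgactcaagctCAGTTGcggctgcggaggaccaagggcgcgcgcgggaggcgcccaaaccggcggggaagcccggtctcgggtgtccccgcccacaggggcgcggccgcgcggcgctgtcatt
Glul: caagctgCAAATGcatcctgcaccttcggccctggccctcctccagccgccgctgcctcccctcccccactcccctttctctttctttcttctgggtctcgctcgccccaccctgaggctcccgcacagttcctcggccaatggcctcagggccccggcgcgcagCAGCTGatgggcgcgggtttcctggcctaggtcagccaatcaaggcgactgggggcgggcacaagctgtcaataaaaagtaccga

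MYC peaks lay in or near 7 of the 9 genes in both cell lines, Flag peaks near none, and Glul and Slc38a1 had no peak in any library. Over all protein-coding genes, 43.2% likewise had no MYC peak in either line. In or within 5 kb of the genes there were 13 MYC peaks in vector cells and 17 in POH1-Flag cells. The share of all protein-coding genes with such a peak was 40.5% for MYC in vector cells, 55.7% for MYC in POH1-Flag cells and 4.29% for Flag. Counting only summits within 1 kb of either gene end, 6 genes had a MYC peak in vector cells (Glud1, Got1, Got2, Slc38a2, Slc7a5 and Slc7a1), against 28.2% of all genes. In POH1-Flag cells Slc1a5 joined them, which made 7 of 9 against 40% of all genes. The count for Flag was 0 of 9 against 0.196% of all genes. The members were named rather than drawn at random and their median length, 24854 bp, exceeds the 17169 bp of all genes, so these shares are given side by side without a test.

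**Figure D1:**
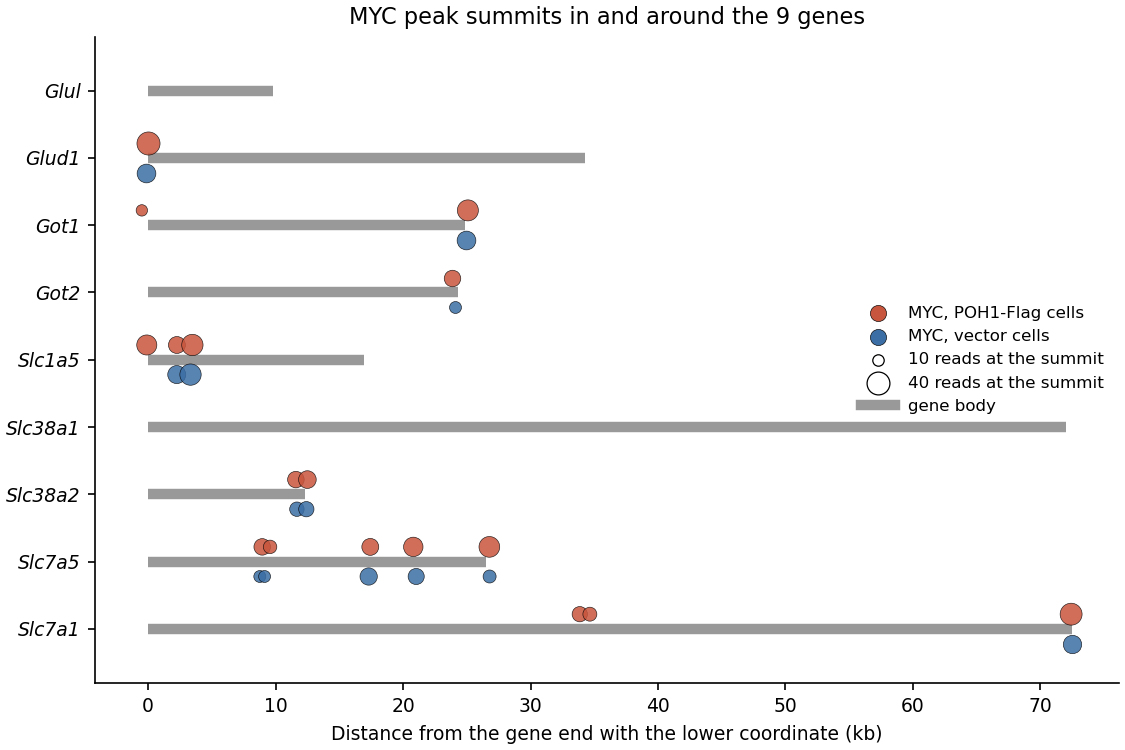
MYC peak summits (circles, area in proportion to the reads at the summit) along the 9 genes (grey bars), with distance in kb from the gene end at the lower genome coordinate on the x axis. Peaks of POH1-Flag cells are above each bar and those of vector cells below. Glul and Slc38a1 carry no circle, and Slc7a5 carries 5 in each cell line.

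Among the enzymes of glutamate use, Glud1 and Got1 held the highest −log10 q of the 9 genes in both MYC lists. Reads at a summit are whole pileups recovered from the deposited fold enrichment and −log10 p (fold and −log10 q are the authors' own and serve to describe and rank peaks within a list). At Glud1 (chromosome 14, 34310727 to 34345033) the peak held 27 reads in vector cells and 41 in POH1-Flag cells, with a fold of 7.72 and 9.43 and a −log10 q of 14.5 and 25.4. Within their lists these stood above 91.6% and 95.6% of all gene-end peaks by −log10 q. Their summits lay 178 and 21 bp upstream of the Glud1 start, in peaks 720 and 791 bp wide. They were also 102 and 55 bp from the end of Shld2, a gene of DNA repair choice, so the site cannot be given to Glud1 alone.

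Got1, the cytosolic aminotransferase gene (chromosome 19, 43499752 to 43524605), had 27 reads in vector cells and 34 in POH1-Flag cells, 111 and 230 bp upstream of its start, with a −log10 q of 14.2 and 17.9. In vector cells this equalled the pileup at Glud1. Only POH1-Flag cells had a further peak beyond the far end of the gene, at 495 bp, and it was weak, with 10 reads, a fold of 4.20 and a −log10 q of 3.25. Just 6.45% of gene-end peaks in that list ranked below it.

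Got2, the mitochondrial counterpart (chromosome 8, 95864133 to 95888401), had the lowest gene-end peak of the set in vector cells, with 11 reads, a fold of 4.95 and a −log10 q of 4.20. In POH1-Flag cells it held 21 reads, with a fold of 8.04 and a −log10 q of 12.9. Unlike those of Glud1 and Got1, these summits lay inside the gene, 164 and 419 bp from its start, in wide peaks of 825 and 858 bp. The peaks covered only 8 and 97 of the 250 bases upstream.

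Glul, the one member that makes glutamine (chromosome 1, 153899929 to 153909723), had no peak. The nearest MYC summit was 112 kb from the gene in vector cells, with 10 reads, and 53.0 kb away in POH1-Flag cells, with 12 reads. At the genome-wide background the lowest −log10 p of each MYC list would be passed by 6 reads in vector cells and by 5 in POH1-Flag cells, so a weaker signal could not have been listed. A higher local background raises that number, as to 18 reads at the highest background of the Slc1a5 peaks in vector cells. Without a peak the background at Glul could not be solved, so stronger signals may also have gone unlisted.

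Of the carriers of glutamine, Slc38a2 and Slc1a5 had MYC peaks and Slc38a1 had none. At Slc38a2 (chromosome 15, 96687392 to 96699728) there were 2 peaks at the start in both cell lines. The outer peak held 18 reads in vector cells and 24 in POH1-Flag cells, 72 and 155 bp upstream, with a −log10 q of 6.05 and 8.27. The inner peak held 16 and 21 reads, 667 and 747 bp inside the gene, with a −log10 q of 4.75 and 6.38. All 4 peaks ranked below the middle of the gene-end peaks of their lists, the highest above 48.4% of them.

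Slc38a1, its close relative on the same chromosome (96571418 to 96643438), had no peak in any library in its 72021 bp or its flanks. The nearest MYC summits were 55.6 and 55.5 kb away, and these were the inner peaks of Slc38a2. The related carriers thus had 2 peaks and none in each MYC list.

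Slc1a5, the gene of ASCT2 (chromosome 7, 16781334 to 16798274), had 2 MYC peaks inside the gene in both cell lines and 1 more peak at its lower-coordinate end in POH1-Flag cells alone. The inner peaks held 25 and 35 reads in vector cells, at 2244 and 3322 bp from that end, and 22 and 35 reads in POH1-Flag cells, at 2255 and 3469 bp. Their −log10 q was 4.94 and 11.2 in vector cells, and 2.82 and 9.84 in POH1-Flag cells. The end peak (chr7:16781065-16781537) held 31 reads at 108 bp, with a fold of 3.79 and a −log10 q of 7.51. No vector peak overlapped it.

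The background solved at the Slc1a5 summits, the term that divides the fold, was high, at 6.39 and 6.44 reads in vector cells and 7.43 to 7.51 in POH1-Flag cells. Between 97.2% and 97.3% of peaks in the list had a lower one. At a background of 6.44 reads, a summit in the vector list would need 18 reads to pass the lowest −log10 p of that list. That background is from the inner peaks, and none could be solved at the gene end, which had no vector peak. If it was as high there, a vector signal below that number could not have been listed. The absence of a peak there is a limit and not a 0.

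Slc7a5, the light chain of the leucine and glutamine exchanger (chromosome 8, 121881146 to 121907686), had more peaks than any other member, 5 in each MYC list. The upper-end peak held 13 reads in vector cells and 33 in POH1-Flag cells, 247 and 227 bp beyond the gene end, with a −log10 q of 4.69 and 15.6. The peak thus stood above 31.1% of gene-end peaks in the vector list and above 79.5% in the POH1-Flag list. The other 4 in each list lay inside the gene, between 5513 and 9241 bp from the nearer end in vector cells and between 5740 and 9564 bp in POH1-Flag cells. In vector cells they held 11, 11, 23 and 20 reads in order of coordinate, and in POH1-Flag cells 21, 14, 22 and 29. In vector cells 2 of the inner summits were higher than the end peak, and in POH1-Flag cells none was. Exons were not used here, so these sites are described as inside the gene.

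Slc7a1, the cationic carrier (chromosome 5, 148327410 to 148399904), had the widest peaks of the set, 1208 bp in vector cells and 1657 bp in POH1-Flag cells, wider than 99.1% and 99.8% of their lists. They held 26 and 37 reads, 24 and 86 bp inside the gene from its start, with a −log10 q of 8.89 and 14.9. POH1-Flag cells alone had 2 further peaks near the middle of the gene, with 18 and 15 reads, 38633 and 37841 bp from the start. Their −log10 q was 6.21 and 3.95, above 50.4% and 26.1% of that list, and the second had its lowest width, 202 bp. No vector peak overlapped these 2 peaks. Without one the vector background there could not be solved, so a vector signal may have gone unlisted.

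**Figure D2:**
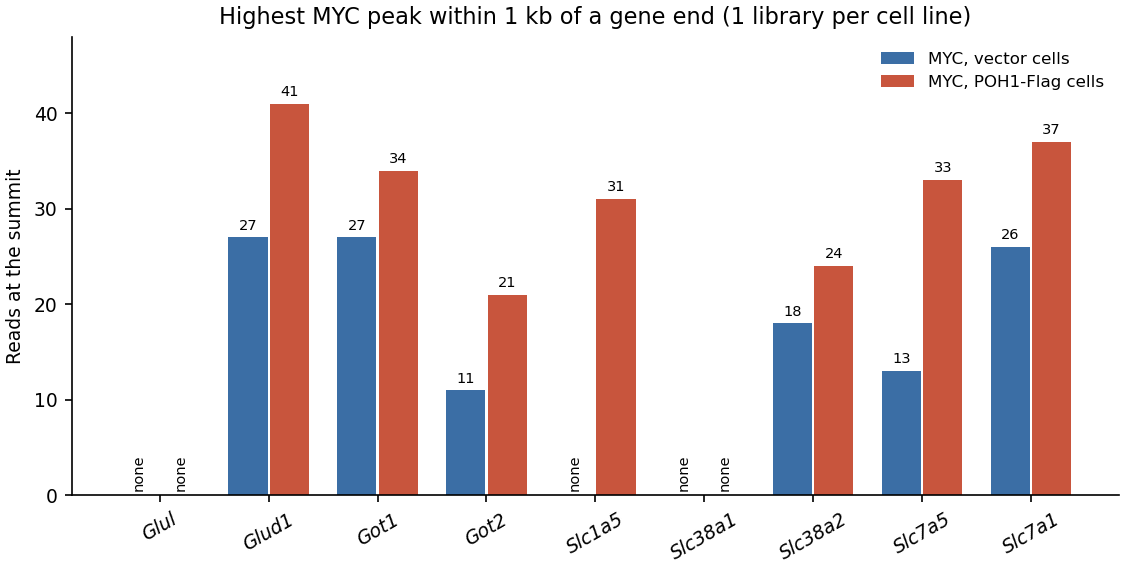
Reads at the summit of the highest MYC peak within 1 kb of a gene end, for each of the 9 genes in vector cells (blue) and POH1-Flag cells (red), 1 library per cell line. Bars reach from 11 reads at Got2 in vector cells to 41 at Glud1 in POH1-Flag cells, and "none" marks a library without such a peak.

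By these pileups the order in POH1-Flag cells was Glud1 (41 reads), Slc7a1 (37), Got1 (34), Slc7a5 (33), Slc1a5 (31), Slc38a2 (24) and Got2 (21). With 1 library, neighbours in this order were not tested and cannot be ranked beyond these counts. In vector cells Glud1 and Got1 (27 each) and Slc7a1 (26) were together at the top, then came Slc38a2 (18), Slc7a5 (13) and Got2 (11). All members with a gene-end peak had a summit within 250 bp of an end in vector cells, while in POH1-Flag cells Got2 was farther, at 419 bp. The farthest summit inside the 1 kb limit was that of the inner Slc38a2 peak (747 bp, 21 reads). The next one outward, at the first Slc1a5 site, was well beyond the limit (2244 bp, 25 reads). Outside the 5 kb window, the nearest peak to any member was 5.91 kb from Got1 in POH1-Flag cells, with 18 reads, and the farthest listed peak beyond a gene was the one 495 bp from Got1.

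Every MYC peak of vector cells in these genes had a counterpart in POH1-Flag cells, which had 4 more. All 13 vector peaks overlapped a POH1-Flag peak by at least 1 bp, where the share over the whole vector list was 84.7%. Of the 17 POH1-Flag peaks, 13 overlapped a vector peak, where the share over that list was 45.1%. The 4 without a partner were those at the far end of Got1, at the end of Slc1a5 and the pair inside Slc7a1. Gene-end peaks made up 7 of the 13 and 9 of the 17, but 44.4% and 35.7% of the whole lists. Among all genes, 6172 had a gene-end peak in vector cells and 6049 had one in both lines. The whole lists are therefore not a like background for these overlaps. By gene ends, 6 members had a peak in both lines (27.6% of all genes), 1 in POH1-Flag cells only (12.4%) and 2 in neither (59.4%). The one in POH1-Flag cells only, Slc1a5, was 1 of 3 members without a vector peak, and over all genes without one the share was 17.2%. No member had its gene-end peak in vector cells alone, as 0.562% of all genes did.

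At sites paired between the lists, the background-scaled pileup was higher in POH1-Flag cells at all 7 gene-end sites of the members, as it was at 98.3% of all 5127 paired gene-end sites (those that met Flag peaks were left out). When pileups were instead divided by the median pileup of the shared gene-end sites, which takes out the general difference between the lists, 2 of the 7 member sites and 42.0% of all sites were higher in POH1-Flag cells. With the background scaling, the member median was 0.54 on the log2 scale, a ratio of 1.46, against 0.71 and 1.64 over all such sites. The 95% counting interval of the ratio lay above 1 at 1 of the 7, against 25% of all sites. These shares are near or below the background and show nothing particular to the amino acid genes.

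The exception with an interval above 1 was the end of Slc7a5. Its 13 and 33 reads gave a ratio of 2.60 (1.33 to 5.38), higher than at 97.0% of all shared gene-end sites. With pileups divided by the median of those sites instead, the log2 ratio fell from 1.38 to 0.61 and no interval at the 7 sites lay above 1. The local background at that site was higher too, at 1.84 and 4.06 reads, a scaled ratio of 2.26, where it was between 1.25 and 1.47 at the other 6 member sites. Its part in the result was not tested. Ratios at the remaining gene-end sites were 1.95 (0.900 to 4.49) at Got2, 1.55 (0.933 to 2.63) at Glud1, 1.46 (0.858 to 2.50) at Slc7a1 and 1.29 (0.755 to 2.22) at Got1. For Slc38a2 they were 1.36 (0.710 to 2.67) and 1.34 (0.668 to 2.75) at the outer and inner peak. All 6 of these intervals hold 1, so no difference could be detected there from so few reads.

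Of 5 paired sites inside Slc1a5 and Slc7a5, 3 were higher in POH1-Flag cells, against 90.4% of the 4036 shared sites away from gene ends, and the median was 0.03 on the log2 scale against 0.59. This count was 2 of 5 with pileups unscaled or divided by background reads per kb, and 1 of 5 with division by the median of shared gene-end sites. The ratio was 0.900 (0.484 to 1.66) and 1.02 (0.622 to 1.68) at the Slc1a5 sites. Within Slc7a5 it was 0.979 (0.520 to 1.84), 1.48 (0.811 to 2.77) and 1.95 (0.900 to 4.49). With 5 sites in 2 genes, all with intervals that hold 1, this is a description of these sites.

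**Figure D3:**
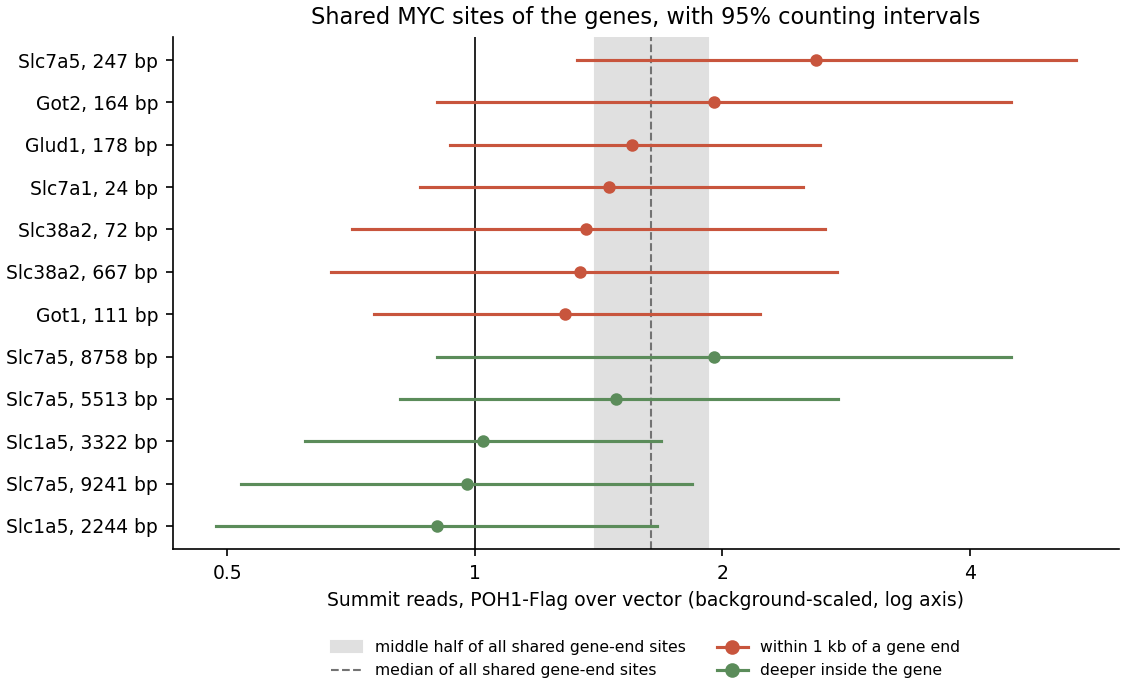
Ratio of background-scaled summit reads, POH1-Flag over vector, at the 12 paired MYC sites of the genes (points, log axis) with 95% counting intervals (lines), each named by its gene and the distance of the vector summit from the nearer gene end. The dashed line is the median of all shared gene-end sites (1.64) and the grey band spans their middle 50%. Only the interval at the end of Slc7a5 lies above 1.

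CACGTG, which reads alike on both strands, was in none of the 7 upstream windows of 250 bases (Slc7a1 has 2 annotated starts), and in 6.63% of 21263 such windows of protein-coding genes. On either strand, CACGCG was in 1 of the 7 windows, against 9.99% of all. CATGCG was in the Glud1 window alone, against 6.33%. The looser CANNTG, which includes CACGTG, was in 5 of the 7 windows, against 62.8%. At Glud1, CATGCG was 49 bp from the summit in vector cells and 107 bp in POH1-Flag cells. In the Slc38a2 window CAGGTG lay 2 and 85 bp from the nearest summit. Got1 had a strong peak over its whole window and none of these letters. A match is only a run of letters, and no match says only that they are not in this window.

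GC content of the windows at the outermost start ran from 54.4% at Got1 to 82% at Glud1, with Got2 at 59.2%, Slc7a1 at 62.4%, Glul at 64.8% and Slc38a2 at 72%. Over protein-coding genes the median was 60.8% where POH1-Flag cells had a gene-end MYC peak and 51.2% where they had none. Glul, without a peak, was thus richer in GC than 3 of the members with one. All 250 upstream bases lay within a MYC peak of both lists at Glud1, Got1 and Slc7a1. At Slc38a2 it was 250 in vector cells and 220 in POH1-Flag cells.

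Flag peaks were far from these genes. The nearest summits ranged from 112 kb at Glul to 2126 kb at Got1, and none of the 30 MYC peaks of the members overlapped a Flag peak. The Flag list is short, with 2936 peaks against 12175 and 22647 in the MYC lists, and its 43 peaks near a gene end are 1.46% of it.

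Beyond the 9 genes, 55 other genes of amino acid transport and glutamate metabolism were examined. Gene-end MYC peaks were found at 25 of them in vector cells (45.5%) and at 26 in POH1-Flag cells (47.3%), against 28.2% and 40% of all genes. Gene-end Flag peaks were found at 0, against 0.196% of all genes. In the gene or within 5 kb, 2 of the 55 had a Flag peak, against 4.29% of all genes. Enzymes made up most of the genes with a gene-end MYC peak, with 17 of 22 in vector cells (77.3%) and 16 in POH1-Flag cells (72.7%). By −log10 q in POH1-Flag cells, the measure used to pick examples in each role, the highest were Ppat, the first enzyme of purine synthesis (35 and 52 reads, ratio 1.52, 0.972 to 2.40), and Ctps, which makes CTP with nitrogen from glutamine (25 and 44 reads, 1.80, 1.08 to 3.07). Asns, the asparagine synthetase gene, had 24 and 23 reads (0.981, 0.529 to 1.81).

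Over all genes, the share with a gene-end MYC peak was 28.2% in vector cells and 40% in POH1-Flag cells. For other neutral and glutamine carriers the count was 3 of 12 genes in vector cells (25%) and 4 in POH1-Flag cells (33.3%). By the same measure the highest was Slc1a4, the closest relative of Slc1a5 (30 and 46 reads, ratio 1.57, 0.969 to 2.57), followed by Slc38a6 (9 and 20 reads, 2.27, 0.990 to 5.67). Among exchangers the count was 2 of 12 in both (16.7%). These were Slc3a2, the heavy chain that partners SLC7A5 (24 and 41 reads, 1.75, 1.03 to 3.02), and Slc7a6 (12 and 22 reads, 1.88, 0.889 to 4.16). Slc7a11, which takes up cystine for glutamate, had none at its ends and 2 and 3 MYC peaks elsewhere in its window. Of the 9 glutamate and aspartate carriers, 3 had a gene-end peak in vector cells (33.3%) and 4 in POH1-Flag cells (44.4%). The highest −log10 q in POH1-Flag cells was at the mitochondrial carriers Slc25a12 (8 and 21 reads, 2.69, 1.14 to 7.01) and Slc25a22 (14 and 26 reads, 1.90, 0.957 to 3.94). Over the 23 list genes whose highest peaks were paired the median log2 ratio was 0.83, against 0.71 over all shared gene-end sites. Of these 23, 20 were higher in POH1-Flag cells, against 98.3% of all sites, and 8 had an interval above 1, against 25%.

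**Figure D4:**
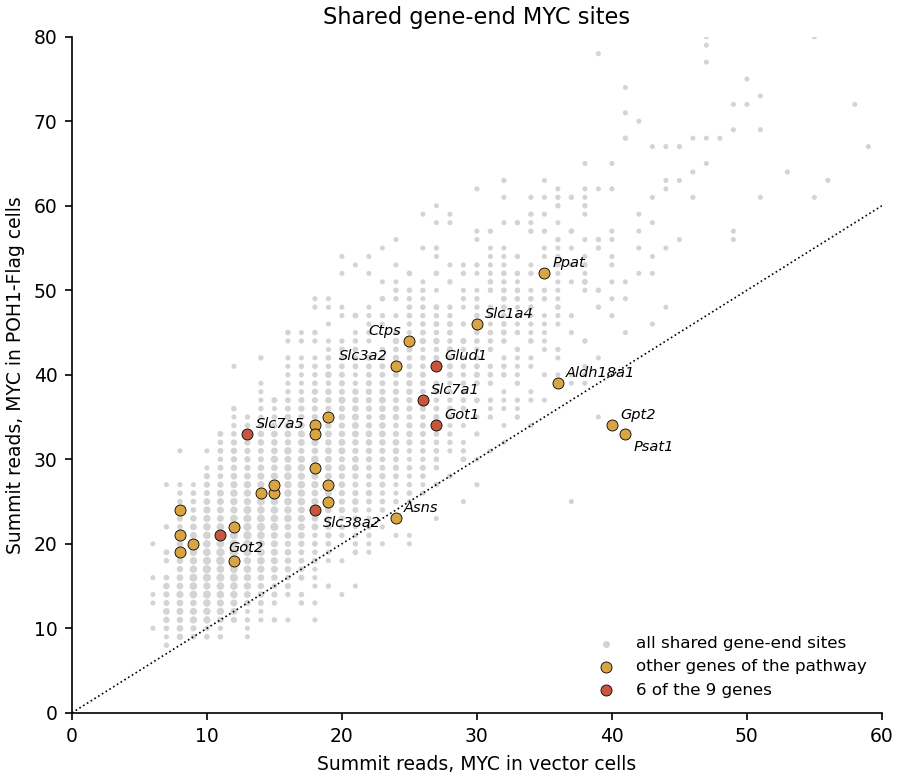
Reads at the summit in vector cells (x axis) and POH1-Flag cells (y axis) for shared gene-end MYC sites: 6 of the 9 genes (red), 23 other genes of the pathway (yellow) and 5122 of all 5127 sites (grey, larger where sites coincide, 5 lie beyond the axes). The dotted line marks equal reads, not scaled. The members lie above it among the grey points, while Gpt2, Psat1 and Asns lie below it.

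As a check of the labelled tissue, gene-end peaks were sought at markers, although a peak does not measure expression. Of 7 epithelial and ductal markers, Sox9 had a MYC peak in both lines, Krt7 in POH1-Flag cells only, and Krt8, Krt18, Krt19, Epcam and Cdh1 in neither. The Sox9 peaks were weak and not paired, with 11 reads in vector cells and 10 in POH1-Flag cells (−log10 q of 3.58 and 2.17). Of 5 acinar markers none had a peak, and of 4 leukocyte markers Cd68 had one in POH1-Flag cells. The epithelial shares, 14.3% in vector cells and 28.6% in POH1-Flag cells, were below the 28.2% and 40% of all genes. With so few markers, these peaks cannot tell which tissue the cells are from.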

How the data were processed

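CUT&Tag peak lists of 3 libraries were used, 1 per group. The submitters' processing notes name MACS2 2.2.7.1, Trim Galore 0.6.6, FastQC 0.11.9, BWA 0.7.17-r1188 and the builds GRCm38 and mm10. No source used here gives their roles or parameters, a control library or the handling of duplicates. The deposited lists give, per peak, a fold enrichment (a linear ratio), −log10 p, −log10 q and a score equal to 10 times the −log10 q, truncated, in at least 99.98% of peaks of each list.

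The pileup k and background λ at each summit were solved from the deposited fold = (k + 1)/(λ + 1) and −log10 p (Poisson tail), and gave a whole k within 0.01 read for 100% of peaks. Pileups were divided by the lowest λ of the library (0.845 for vector MYC, 0.826 for POH1-Flag MYC and 0.946 for Flag). Divided further by the width of the narrowest peak in each list, the alternative scaling by background reads per kb, these values stood as 1, 1.06 and 1.05 relative to vector MYC. Library totals were not analysed here. Median pileups of 14 to 15 reads limit the precision. Sites were paired when each was the other's strongest overlapping peak. Ratios carry exact conditional 95% intervals (Clopper-Pearson), which cover counting error only. If PCR copies were kept, the true intervals are wider.

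Genes and promoters came from RefSeq GRCm38.p6; every list gene matched by symbol. The solving step recovered 100% of 2900 simulated pileups. Their fold and −log10 p were built with the same formulas, so this cannot show that the deposited values follow them. Members and lists were chosen with earlier results of these data known. The text names all members, the 2 list genes per role with the largest −log10 q in POH1-Flag MYC, Slc3a2, Slc7a11 and Asns, and other genes with an end within 1 kb of a member's summit. A further list gene and a stretch of sequence are not reported here. Alternatives were stricter thresholds, other gene-end and flank distances, other scalings and other pairing rules. Python 3.11.15 and SciPy 1.17.1 were used.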

Additional observations from a re-analysis of the deposited data

How the results depend on the processing

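Of the counts of genes and medians recomputed under alternatives, 57 of 69 stayed close to their value (counts within 1.5 times, medians within 1 SD of the sites and not of opposite sign). The Flag counts and the overlaps of MYC with Flag peaks were 0 from the outset. Stricter limits or shorter distances could only leave them at 0, so part of the 57 was fixed in advance. In vector cells the number of members with a peak in the gene or within 5 kb, 7, became 3 when only peaks with −log10 q from 10 up were kept and 4 with folds from 5 up. Members with a gene-end peak there, 6, became 2 and 3 under the same limits, and list genes, 25, became 9 under the first. No share of all genes is given under the alternative settings. Whether these counts, or those of the next sentences, moved more than counts over all genes cannot be told. The number of members with a gene-end peak in POH1-Flag cells only, 1, became 3 with −log10 q from 5 up and also from 10 up. It became 2 with folds from 5 up, and 0 with summits allowed within 5 kb, where the inner Slc1a5 sites count in both lists. The Slc1a5 end peak (−log10 q 7.51, fold 3.79) passed the −log10 q limit of 5 and was lost under the limits of 10 and of fold 5. Members that joined under a limit were Got2, Slc7a5 and, with −log10 q from 10 up, Slc7a1. Their vector peaks were still listed but fell below the limit. The median log2 ratio of member gene-end sites, 0.54, became −0.23 when pileups were divided by the median of all shared gene-end sites, a scaling that by its construction takes out the general difference and moves the median of all sites to −0.06. The median of sites inside members, 0.03, became −0.74 under that scaling and −0.083 when divided by background reads per kb alone. With summits required within 200 bp, 10 of the 12 paired sites were left, and those lost were Got2 and the Slc7a5 site at 5513 bp. The interval at the end of Slc7a5 stayed above 1 under division by reads per kb and without scaling, and not under division by the median. No paired analysis was possible because each group has 1 library.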

Other observations

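Among the other genes of the pathway, 3 of the 23 paired sites had fewer background-scaled reads in POH1-Flag than in vector cells, where 98.3% of all shared gene-end sites had more. They were Psat1 of serine synthesis (41 and 33 reads, ratio 0.824, 0.505 to 1.34), Gpt2, the mitochondrial alanine aminotransferase gene (40 and 34 reads, 0.870, 0.534 to 1.41), and Asns (24 and 23 reads, 0.981, 0.529 to 1.81). Psat1, Gpt2 and Aldh18a1 were singled out after their values were seen, and Aldh18a1, an enzyme of proline synthesis, followed with 36 and 39 reads (1.11, 0.686 to 1.79). These ratios were higher than those of just 0.312%, 0.507%, 1.64% and 4.86% of all shared gene-end sites, in the order named. All 4 intervals hold 1, and all 4 are strong vector peaks, with a −log10 q of 21.7, 25.7, 15.4 and 18.9.

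Bcat1, a gene of branched-chain amino acid breakdown that was also singled out after its value was seen, had a gene-end peak of 12 reads in vector cells and no MYC peak in its window in POH1-Flag cells. It was the only list gene with its gene-end peak in vector cells alone, 1 of 55, against 0.562% of all genes. Slc38a4 and Slc3a1 also had a MYC peak in the window in vector cells and none in POH1-Flag cells, though not at a gene end.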
